A study of Homo sapiens with 2 samples.

Results

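The genes described here are the numbered ZNF zinc finger genes of human chromosome 19, chosen by their name, their chromosome and their measured level. A gene was taken when a row of the value table carried its symbol alone, the symbol was ZNF followed by digits, the RefSeq annotation placed it on chromosome 19, and the higher of its log2 values in the 2 samples was at least 6, a floor that leaves out dim genes. This gave 147 genes of the 13471 that passed the same floor, 48 on the short arm (19p) and 99 on the long arm (19q). The annotation lists 241 such genes, 83 on 19p and 158 on 19q. Of these, 221 had a row of their own, 74 of the 221 stayed under the floor, and 14 of the 20 without a row of their own appear only in rows shared with other symbols.

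The samples were 2 cultures of K562, a chronic myeloid leukaemia cell line with erythroid features. Both carried the same inducible hairpin (a short RNA that lowers BMI1 mRNA), and BMI1 protein is part of a Polycomb complex that represses genes through chromatin. One culture was kept in doxycycline for 96 h to induce the hairpin, and the control culture had none, for a time the labels do not give. Neither a culture without the hairpin nor one given doxycycline without it is among the samples, so the drug, the hairpin and BMI1 loss cannot be told apart, and whether the cells are 1 clone is not stated. With 1 array per culture there is no replicate spread and no test. Each value is a log2 array signal normalized by RMA, and each difference is doxycycline minus no doxycycline on that scale. The BMI1 row, which its read-through transcript shares, stood at 10.00 with doxycycline and 10.84 without. Of 8 measured erythroid markers, 8 passed the floor in both samples, among them HBE1, an embryonic globin gene (13.03 with doxycycline and 13.34 without), and GATA1, an erythroid transcription factor gene (10.16 and 10.34 in the same order). As a set their medians were 9.80 with doxycycline and 10.00 without, and 7 of the 8 were lower with doxycycline. Markers of other cells that passed the floor were 2 of 4 for T cells, 2 of 3 for B cells, 4 of 4 for monocytes and 2 of 4 for fibroblasts, and the medians of these sets lay between 5.96 and 6.62 with doxycycline and between 6.02 and 6.65 without. The part of cell composition in the differences below was not tested, and fewer cells expressing a gene cannot be told apart from less RNA per cell.

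Most ZNF genes encode C2H2 zinc finger proteins, in which a series of fingers reads a DNA sequence. Many also carry a KRAB domain, which recruits the corepressor TRIM28 (KAP1). TRIM28 brings the histone methyltransferase SETDB1, HP1 proteins and histone deacetylases, and the complex is known for silencing transposable elements. Chromosome 19 holds the largest groups of these genes in the human genome, arranged as tandem families that arose by duplication. Their coding exons are themselves packed in heterochromatin that carries trimethylated lysine 9 of histone H3.

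Promoters of 5 of the genes are shown because they stand at both ends of the differences described below. They are the gene of each arm with the highest difference among those past the floor in both samples that had a promoter entry (ZNF100 on 19p, ZNF841 on 19q), the gene of each arm with the lowest (ZNF430 on 19p, ZNF813 on 19q), and ZNF823, which has the highest such difference in the short-arm cluster that stood furthest from 0. Each is the RefSeq GRCh38.p14 window from 250 bases before to 50 bases after the gene's start, read along the gene. The windows are chr19:21767530-21767829 (minus strand), chr19:11738897-11739196 (minus strand), chr19:52095716-52096015 (minus strand), chr19:21020407-21020706 (plus strand) and chr19:53467483-53467782 (plus strand). Capitals mark GGGCGG, the core of SP and KLF factor sites, and CCGGAAG, an ETS factor core, on either strand.
ZNF100: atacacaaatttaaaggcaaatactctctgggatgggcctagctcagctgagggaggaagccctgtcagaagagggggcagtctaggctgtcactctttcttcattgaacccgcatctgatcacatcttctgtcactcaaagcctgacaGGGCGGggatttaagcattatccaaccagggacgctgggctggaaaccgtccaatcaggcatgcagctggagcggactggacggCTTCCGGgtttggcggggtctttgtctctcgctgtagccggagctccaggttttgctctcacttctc
ZNF823: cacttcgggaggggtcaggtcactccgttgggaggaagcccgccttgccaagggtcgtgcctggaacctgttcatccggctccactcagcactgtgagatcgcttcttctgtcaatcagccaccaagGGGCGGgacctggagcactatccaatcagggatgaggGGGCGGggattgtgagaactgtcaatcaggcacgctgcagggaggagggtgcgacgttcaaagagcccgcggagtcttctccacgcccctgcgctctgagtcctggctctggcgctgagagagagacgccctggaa
ZNF841: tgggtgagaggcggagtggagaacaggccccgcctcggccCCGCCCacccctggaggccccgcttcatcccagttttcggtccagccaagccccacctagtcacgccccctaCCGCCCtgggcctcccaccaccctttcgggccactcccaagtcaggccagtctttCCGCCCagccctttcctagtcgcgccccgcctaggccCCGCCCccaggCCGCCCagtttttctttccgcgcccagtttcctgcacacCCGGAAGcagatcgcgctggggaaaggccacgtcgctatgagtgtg
ZNF430: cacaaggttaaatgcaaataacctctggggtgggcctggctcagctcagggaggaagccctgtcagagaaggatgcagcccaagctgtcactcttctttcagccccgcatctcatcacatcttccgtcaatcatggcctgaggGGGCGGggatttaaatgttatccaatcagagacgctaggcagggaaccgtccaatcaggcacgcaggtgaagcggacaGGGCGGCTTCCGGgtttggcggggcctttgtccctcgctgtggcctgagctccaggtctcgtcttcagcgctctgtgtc
ZNF813: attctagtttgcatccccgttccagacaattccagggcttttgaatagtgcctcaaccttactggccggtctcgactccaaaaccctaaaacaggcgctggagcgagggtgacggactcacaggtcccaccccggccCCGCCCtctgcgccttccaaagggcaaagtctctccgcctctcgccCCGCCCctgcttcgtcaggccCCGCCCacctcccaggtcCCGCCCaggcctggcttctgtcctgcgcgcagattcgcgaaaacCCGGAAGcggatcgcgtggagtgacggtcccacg
The ZNF100 and ZNF430 windows were 81.7% identical in a global alignment, against a median of 53.0% over all pairs of windows of these genes. In ZNF430 a GGGCGG and an ETS core lie side by side and share a capital run. The differences of ZNF100 and ZNF430 had opposite signs, 0.54 and -0.26. The ZNF841 and ZNF813 windows, also of genes with opposite signs, were 57.0% identical.

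Most of the chromosome 19 ZNF genes had a higher value with doxycycline, and most differences were small. Of the 147 genes, 103 were higher and 44 lower (70.1% higher), where 50.3% of all 13471 genes were higher. Their median difference was 0.088, with quartiles of -0.037 and 0.22, against a median of 0.0018 and quartiles of -0.095 and 0.11 over all genes. At least 1.2-fold higher were 26 of the 147 (17.7%), against 6.04% of all genes, and at least 1.2-fold lower were 4 (2.72%), against 4.05%. At 1.5-fold, 2 genes were higher and 0 lower, where 0.364% of all genes were higher and 0.111% lower. The robust SD of differences among genes of similar level (20 classes of level) gives another yardstick. By it 17 of the 147 genes (11.6%) were higher by over 2 robust SD, against 4.08% of all genes, and 1 (0.680%), ZNF813, was lower by as much, against 2.10%. The 17 include ZNF45, ZNF443 and ZNF284, which passed the floor with doxycycline only and so had to be higher. Neither the 17 nor the share over all genes was limited to genes past the floor in both samples.

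The floor itself bears on the ends of this range. The 3 genes just inside it were ZNF284 (at the floor with doxycycline, 5.49 without), ZNF880 (6.02 and 5.98) and ZNF443 (6.08 and 5.47), and the 3 just outside were ZNF846 (5.97 with doxycycline, 5.98 without), ZNF331 (5.93 and 5.69) and ZNF528 (5.88 and 5.55). Of the 147 genes, 142 passed the floor in both samples, 4 with doxycycline only (ZNF45, ZNF443, ZNF284 and ZNF880) and 1, ZNF256, without doxycycline only. Genes that passed in 1 sample alone had to differ in that direction. Among the 142, 99 were higher and 43 lower, the median was 0.087, 23 were at least 1.2-fold higher (16.2%) and 0 reached 1.5-fold. Of all 13015 genes past the floor in both samples, 50.3% were higher, 5.45% were at least 1.2-fold higher and 34 were at least 1.5-fold higher. The 74 genes under the floor did not lean one way, with 37 higher, 32 lower, 5 equal and a median of 0.0062.

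**Figure D1:**
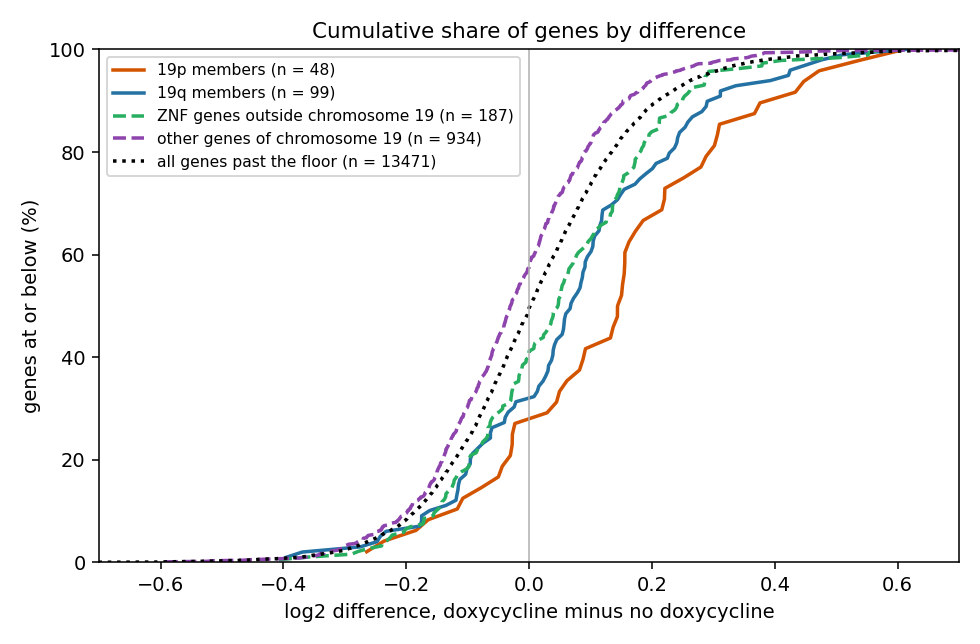
Cumulative share of genes (vertical axis, percent) at or below each log2 difference, doxycycline minus no doxycycline (horizontal axis), for the 48 short-arm and 99 long-arm ZNF genes, 187 ZNF genes of other chromosomes, 934 other genes of chromosome 19 and all 13471 genes. The curves of both arms lie to the right of the curve of all genes over most of the range, with medians of 0.15 (19p) and 0.068 (19q) against 0.0018, and the curve of the other chromosome 19 genes lies to its left.

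Genes with a higher value outnumbered those with a lower one on both arms, and the median was larger on the short arm. On 19p, 35 of 48 genes were higher (72.9%), with a median of 0.15, 12 past 1.2-fold on the higher side and 1, ZNF430, on the lower. On 19q, 68 of 99 were higher (68.7%), with a median of 0.068, 14 past 1.2-fold on the higher side and 3, ZNF813, ZNF773 and ZNF296, on the lower. With 1 sample per condition the difference between the arms was not tested. Of 934 other genes of chromosome 19 past the floor, 42.0% were higher and the median was -0.030, with medians of -0.035 for 459 genes on 19p and -0.024 for 475 on 19q. ZNF genes of other chromosomes lay between, with 110 of 187 higher (58.8%), a median of 0.048 and 15 at least 1.2-fold higher (8.02%). The other genes of chromosome 19 are shorter, with a median genomic span of 12.7 kb against 21.7 kb for its ZNF genes, and differences rose weakly with span. With the span trend subtracted, the median was -0.018 for these other genes, 0.086 for the chromosome 19 ZNF genes and 0.038 for ZNF genes of other chromosomes. Zinc finger genes of chromosome 19 with other family names (ZBTB, ZFP, ZIK and ZSCAN) numbered 11, and 8 of them were higher. The lowest of the 11 was ZFP36 at -0.26, whose product is an mRNA decay factor with another type of finger.

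On the short arm, the cluster from ZNF653 to ZNF791 stood furthest from 0. Clusters are runs of ZNF genes in which neighbours start at most 1 Mb apart, named by the first and last gene of the run. Those with at least 5 genes past the floor are described. In this one, 14 of 16 genes past the floor were higher and 7 were at least 1.2-fold higher, with a median of 0.24. ZNF443, a KRAB zinc finger gene, had the largest difference, at 6.08 with doxycycline and 5.47 without (0.61, 1.53-fold). It is counted in the 14 and the 7, but it passed the floor with doxycycline only and so had to be higher. ZNF823 stood at 7.72 with doxycycline and 7.27 without (0.45), and ZNF627 at 8.45 and 8.02 in the same order (0.43). ZNF442 followed at 0.38, ZNF433 at 0.31, ZNF441 at 0.31 and ZNF564 at 0.30, so the genes at least 1.2-fold higher spread along the whole cluster. ZNF700, the brightest of the cluster, stood at 9.56 with doxycycline and 9.34 without. The lower pair were ZNF69, at 7.44 with doxycycline and 7.68 without (-0.24), and ZNF653, the first gene of the run, at -0.11. Among 6 other genes within the cluster, 3 were higher, with a median of 0.064.

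The cluster next to the centromere, from ZNF101 to ZNF254, was mixed. Of its 16 genes 10 were higher, with a median of 0.15. A 1.2-fold difference was reached by 5 of them on the higher side and by ZNF430 on the lower. ZNF100 had the largest difference of the chromosome 19 ZNF genes past the floor in both samples, at 8.46 with doxycycline and 7.92 without (0.54, 1.45-fold). ZNF493 stood at 8.23 with doxycycline and 7.76 without (0.47), ZNF738 differed by 0.37, ZNF429 by 0.29 and ZNF431 by 0.28. These genes are near one another, since ZNF431, ZNF738, ZNF493, ZNF429 and ZNF100 lie at places 61, 63, 64, 65 and 66 of the 241 in chromosomal order. ZNF430, at place 59, was lower, at 7.28 with doxycycline and 7.54 without (-0.26), and so was ZNF14 (6.65 with doxycycline, 6.83 without, -0.18). ZNF93, known for repressing LINE-1 elements, stood at 6.27 with doxycycline and 6.11 without (0.16). The 1 other gene past the floor within the run was higher. ZNF91, known for repressing SVA elements, was under the floor with the same value, 5.59, in both samples, and so was not counted. Equal values in both samples were found in 735 rows, 5 of them of the 221 genes and 0 of the 147.

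The remaining short-arm cluster of this size, from ZNF557 to ZNF846, differed less. Of its 11 genes 7 were higher, with a median of 0.049, and 0 reached 1.2-fold in either direction. Its extremes were ZNF699, at 6.24 with doxycycline and 6.02 without (0.22), and ZNF562, at 8.51 and 8.67 in the same order (-0.16). Among 45 other genes within this run, 21 were higher and the median was -0.0030.

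**Figure D2:**
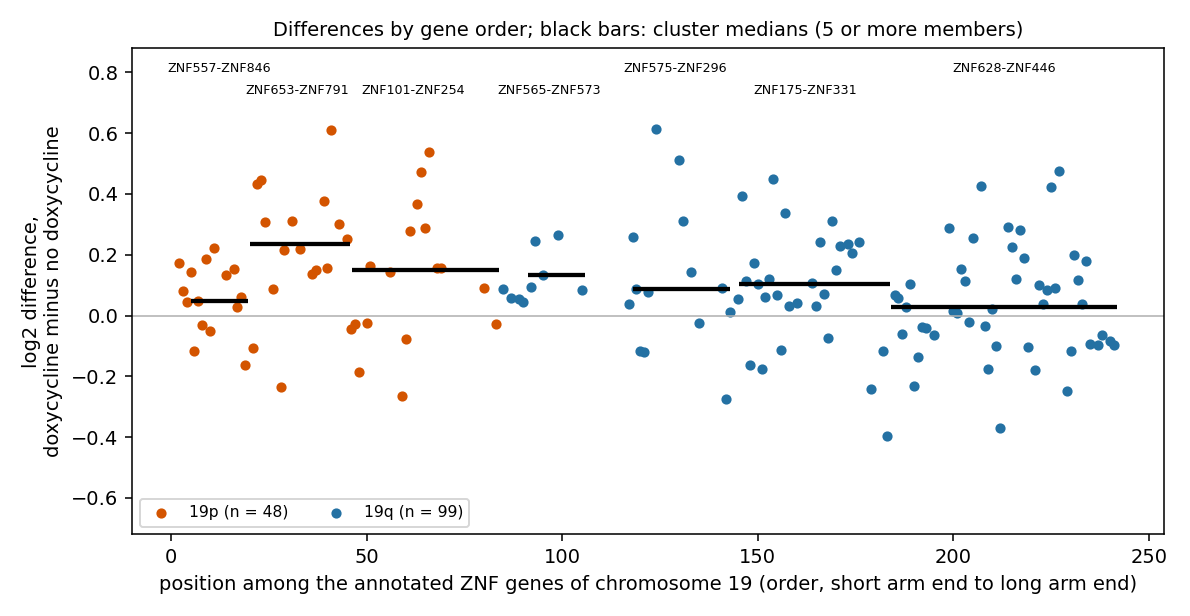
Log2 difference of each of the 147 genes, doxycycline minus no doxycycline (vertical axis), against its place among the 241 annotated ZNF genes of chromosome 19 from the end of the short arm to the end of the long arm (horizontal axis). Points are genes, coloured by arm, and black bars are the medians of the 7 clusters with at least 5 genes, from 0.24 (ZNF653 to ZNF791) to 0.027 (ZNF628 to ZNF446).

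On the long arm, the run from ZNF175 to ZNF331 held some of the brightest genes. Of its 28 genes 21 were higher, with a median of 0.11, while 1 of 9 other genes in the same run was higher and their median was -0.16. ZNF841 stood at 9.79 with doxycycline and 9.33 without (0.45, 1.37-fold), and ZNF175, known as OTK18 and for repressing the HIV-1 promoter, at 9.67 and 9.28 in the same order (0.39). ZNF766 differed by 0.34 and ZNF28 by 0.31. ZNF808, among the 4 brightest of the 147, stood at 9.95 with doxycycline and 9.84 without (0.11). This run also held ZNF813, the lowest of all, at 7.66 with doxycycline and 8.06 without (-0.40, 1.32-fold lower), and ZNF845, at 9.06 and 9.30 in the same order (-0.24). ZNF813, ZNF845 and ZNF761 (-0.12) lie within one tandem family, and the lower values there stand beside higher ones such as ZNF83 (0.24). ZNF649, a KRAB zinc finger repressor, was at -0.16, and ZNF350, known as ZBRK1, a partner of BRCA1, at 0.10.

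The run at the end of the long arm, from ZNF628 to ZNF446, was the largest and the closest to balance. It had 27 of 47 genes higher and 20 lower, with a median of 0.027. Its 18 other genes were alike, with 11 higher and a median of 0.028. The highest were ZNF417, at 7.87 with doxycycline and 7.40 without (0.48), ZNF548, at 7.49 and 7.07 in the same order (0.43), and ZNF587, at 8.22 and 7.80 (0.42). A brighter row, shared by ZNF587 and ZNF587B, stood at 9.27 with doxycycline and 9.18 without (0.090). ZNF417 and ZNF587 are close paralogues known for repressing HERV-K elements. ZNF304, known for recruiting corepressors to the CDKN2A locus in colorectal cancer cells, stood at 7.38 with doxycycline and 7.13 without (0.25). ZNF460, the brightest of the 147, stood at 9.96 with doxycycline and 9.84 without (0.11). ZNF274, which brings SETDB1 to the 3′ ends of ZNF genes, was at 8.73 with doxycycline and 8.69 without (0.039). The lowest were ZNF773, at 6.10 with doxycycline and 6.47 without (-0.37), ZNF256, at 5.98 and 6.23 (-0.25), ZNF581, at 7.49 and 7.73 (-0.23), and ZNF671, at 6.42 and 6.60 (-0.18).

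The other long-arm runs were smaller. From ZNF575 to ZNF296, 7 of 11 genes were higher, with a median of 0.087, and 8 of 20 other genes there, with a median of -0.016. ZNF45 had the largest difference of the 147 genes, at 6.38 with doxycycline and 5.77 without (0.61, 1.53-fold), and ZNF284, 6 places further along, was at 0.51. Both passed the floor with doxycycline only and so had to be higher. Between them lie genes under the floor, such as ZNF155 (5.12 with doxycycline, 4.72 without, 0.40) and ZNF230 (5.20 and 5.35, -0.15). ZNF224, next to ZNF284 and known as a repressor of the aldolase A gene, stood at 6.52 with doxycycline and 6.21 without (0.31). ZNF296, at the end of the run, was lower, at 7.59 with doxycycline and 7.86 without (-0.27). From ZNF565 to ZNF573, where 19 of the 24 measured genes stayed under the floor, 5 of 5 genes past it were higher, from ZNF383 at 0.084 to ZNF850 at 0.27, and so were 3 of 3 other genes there. They include ZNF146, a protein made almost only of fingers and without a KRAB domain, at 9.76 with doxycycline and 9.67 without (0.095). Of 13 genes of both arms outside the 7 clusters, 12 were higher, with a median of 0.056, and ZNF333 of 19p was lower (-0.044). The 13 include ZNF555 (0.17), ZNF556 (0.082), ZNF57 (0.045) and ZNF77 (0.14), of a short-arm run with fewer genes. Another was ZNF473, which takes part in 3′ end processing of histone mRNAs, at 8.98 with doxycycline and 8.93 without (0.054). Passing over genes under the floor, the 147 genes form 133 consecutive pairs within a run, of which 73 were higher together, 18 lower together and 42 opposite, and Pearson's r of the 2 differences was 0.29 across pairs, which share genes and array and are not independent.

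**Figure D3:**
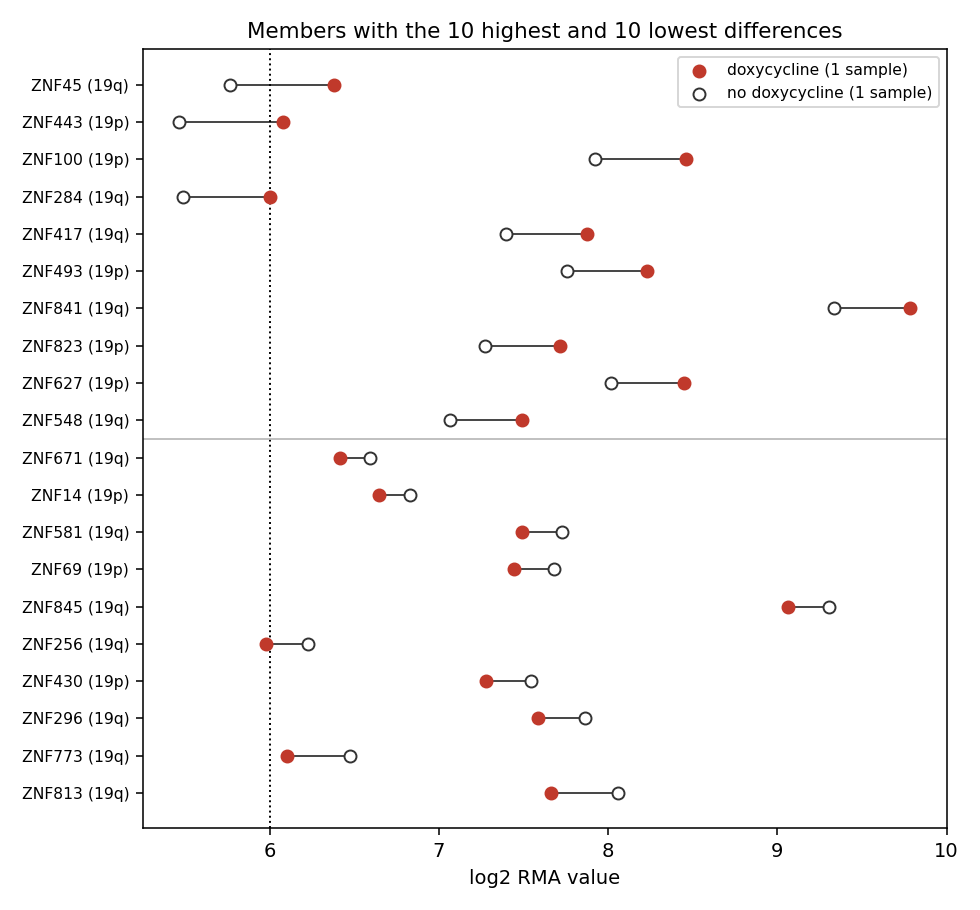
Log2 RMA values (horizontal axis) of the 10 genes with the highest and the 10 with the lowest difference, 1 gene per row, with the doxycycline sample as filled and the control sample as open points. The dotted line is the floor of 6, which ZNF45, ZNF443 and ZNF284 reach with doxycycline only and ZNF256 without doxycycline only.

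Differences had almost no relation to level and a weak one to the genomic span of the gene. Across the 147 genes Spearman's rho of the difference was -0.014 with the mean level and 0.16 with the span, and over 13455 genes with a span it was -0.0027 and 0.18. The genes share the same arrays and are not independent, so these values describe the table. In 5 equal classes of level over all genes, the median of the ZNF genes was 0.098, 0.084, 0.088, 0.060 and 0.11 from dim to bright, against 0, 0, 0.010, 0.0049 and -0.0035 for all other genes. In 5 equal classes of span it was -0.045 (8 genes), 0.060 (43), 0.093 (68), 0.15 (24) and 0.044 (4) from short to long, against -0.040, -0.021, 0.00035, 0.022 and 0.042 for all other genes. In the 3 middle classes, from 6.68 to 75.5 kb, the ZNF genes thus lay above other genes of like span. In the shortest class they did not. There ZNF296 (-0.27), ZNF580 (-0.14), ZNF576 (-0.12), ZNF524 (-0.060) and ZNF414 (-0.031) were lower, and ZNF579 (0.058), ZNF575 (0.087) and ZNF784 (0.10) were higher. ZNF580 and ZNF524 are compact zinc finger genes without a KRAB domain.

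**Figure D4:**
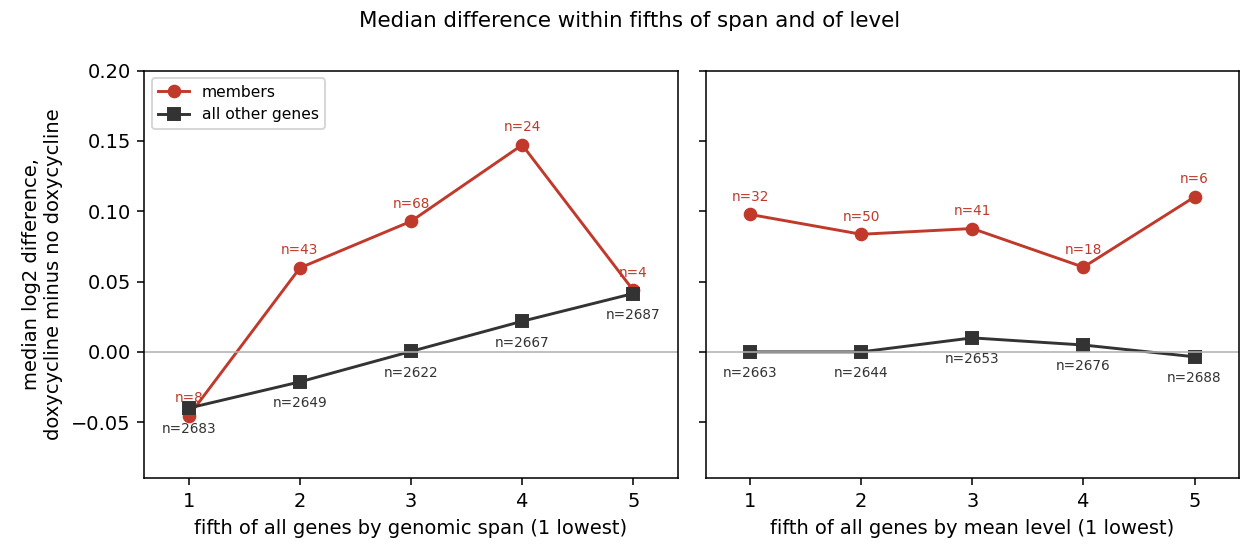
Median log2 difference, doxycycline minus no doxycycline (vertical axes), within 5 equal classes of all genes by genomic span (left) and by mean level (right), for the chromosome 19 ZNF genes (members) and for all other genes, with the number of genes beside each point. The ZNF genes lie above the other genes in each of the 5 level classes and in span classes 2 to 5, with 0.044 against 0.042 in class 5, which holds 4 of them.

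**Figure D5:**
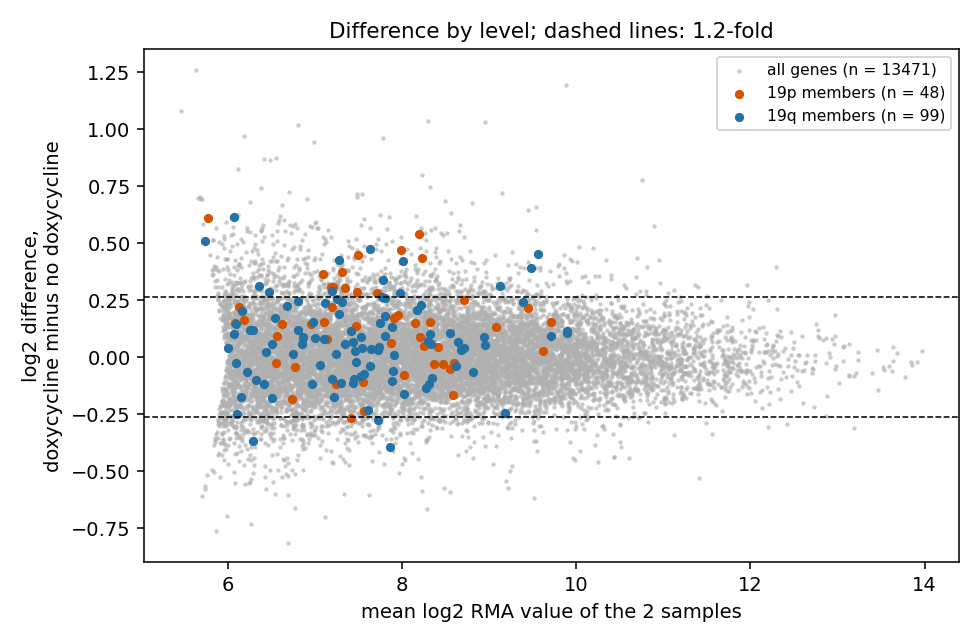
Log2 difference, doxycycline minus no doxycycline (vertical axis), against the mean log2 RMA value of both samples (horizontal axis), for all 13471 genes (grey) and for the ZNF genes of 19p and 19q (coloured). Dashed lines mark 1.2-fold, above which lie 26 of the 147 genes and below which lie 4.

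The promoters of the group were less rich in CpG and more often held an ETS core than other promoters. A window was found for 135 of the 147 genes and for 10603 of the 13471, the first listed where a gene had several. The median number of CpG dinucleotides was 22 for the ZNF genes and 26 for all genes past the floor. By 3 classes of CpG number over all genes, 47 of 61 ZNF genes with up to 20 were higher (median 0.12), 42 of 60 with over 20 and up to 31 were higher (median 0.089), and 6 of 14 with over 31 were higher (median -0.051). For all genes the shares higher in these classes were 52.1%, 51.4% and 48.5%. The 14 with most CpG include ZNF580, ZNF428 (-0.12), ZNF446 (-0.096) and ZNF324 (-0.084) on the lower side and ZNF135 (0.20) and ZNF558 (0.19) on the higher side. Most of the 14 lie in the ZNF628 to ZNF446 run, whose median over all its genes past the floor was 0.027. CpG number and cluster were not separated here.

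Motifs were searched as exact letters on both strands. Hits of GGGCGG and CCGGAAG can overlap or touch, and each was counted on its own. CCGGAAG stood in 41.5% of the ZNF windows, 17.8% of windows of all genes past the floor and 10.7% of the 27305 windows, 1 a gene, in the table. It was in 8 of 14 windows of the ZNF101 to ZNF254 cluster but in 1 of 16 of the ZNF653 to ZNF791 cluster, where GGGCGG was in 15 of 16. The median difference was 0.091 in the 56 ZNF genes with CCGGAAG and 0.088 in the 79 without. GGGCGG was in 74.1% of ZNF windows, 68.6% of those of all genes past the floor and 44.6% of the table. GCCATNTT, the core of YY1 sites, was in 16.3%, 9.58% and 6.82% in the same order. Of the ZNF genes, 18 of 22 with it and 77 of 113 without it were higher, with medians of 0.086 and 0.095. Among all genes past the floor with it, 51.0% were higher. CACGTG, an E-box, was in 5.19%, 10.1% and 7.43%, and TGATGNAA, a C/EBP and ATF composite, in 1.48%, 1.71% and 3.67%. A match describes letters in the window and says nothing of binding.

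The closest promoter window was often that of a gene in the same cluster. Whether the probes of these genes share sequence was not tested. Of the 135 windows, 93 were most like the window of a gene in the same cluster, and 37 had a closest window at 70% identity or more. The ZNF628 to ZNF446 run alone holds 43 of the windows, and the share expected from cluster sizes was not computed. Pairing each gene with its closest window alone gave 26 distinct pairs at 70% identity or more, all of them within a cluster, and other pairs at this identity were not counted. Of the 26, 14 pairs were higher together, 3 lower together and 9 opposite. The ZNF431 and ZNF714 windows were 91.0% identical, with differences of 0.28 and -0.078, so near-identical windows did not always go with equal differences. Of the 147 genes 5 had a further row. The 3 rows of ZNF208 differed in level, from 7.18 to 3.30 with doxycycline and from 7.02 to 3.17 without, but gave 0.16, 0.16 and 0.14. ZNF257 was among the 4 brightest by its brighter row, at 9.79 with doxycycline and 9.63 without (0.16). Its other row was far dimmer and under the floor, at 5.05 with doxycycline and 5.37 without (-0.32). ZNF493 had a second row at 0.15, and ZNF616 had 0.067 at its brighter row and 0.64 at its dimmer one.

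A list of 32 genes of the KRAB corepressor complex and of heterochromatin at large, including general factors such as CTCF and LMNB1, lay near the background. Of these 29 were measured past the floor, 16 higher (55.2%, against 50.3% of all genes) and 13 lower, with a median of 0.037. Past 1.2-fold were 1 gene on the higher side (3.45%, against 6.04%) and 0 on the lower. TRIM28 stood at 11.44 with doxycycline and 11.55 without (-0.11). SETDB1 was at 8.94 with doxycycline and 8.71 without (0.23), and CBX5, the gene of HP1 alpha, at 11.33 and 11.07 in the same order (0.26). UHRF1, a reader of methylated histone and DNA, was at 9.49 with doxycycline and 9.68 without (-0.20), and ATRX, a remodeller of heterochromatin, at 7.91 and 7.74 (0.17).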

How the data were processed

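Total RNA of the 2 cultures was labelled with biotin by an Affymetrix sense target protocol, per the labels' protocols. The authors deposited log2 values of 33297 rows. Per the submitters' processing notes, RMA was run in Expression Console 1.1.1. RMA would remove a shift common to all genes, and the base of the logarithm was taken from RMA and the range of values. The design text names an older 3′ array than the row numbers and platform annotation, which are those of a whole-transcript array and were followed here. No source used here gives the build behind the array.

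Of the 33297 rows, 19460 carried 1 symbol, 1754 several and 12083 none. Symbols were updated by Entrez ID to RefSeq on GRCh38.p14 (19429 matched), which gave the chromosome, order and span of genes. A gene took its row with the highest mean, and 13471 of 18417 genes reached the floor of 6. Arms are the sides of the widest stretch of chromosome 19 without annotated genes. No p-value was computed, since each group held 1 sample, and the number of arrays limits precision. The genes and lists were chosen with earlier results of these data known. Genes were named by rank: the 10 highest and 10 lowest, the ends of each arm and cluster, the brightest, those next to the floor, those whose rows disagree and 10 of known role. Further genes were named after their values were seen. Protein features were planned but not analysed here. The steps were tested on simulated data with 200 changed genes. Alternatives covered the row per gene, the floor, scaling, trends with level and span (loess, span 0.3) and the gap between clusters. Python 3.11.15, pandas 2.3.3, scipy 1.17.1, statsmodels 0.14.6 and biopython 1.88 were used.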

Additional observations from a re-analysis of the deposited data

Results flagged for a closer look

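A row outside the gene comparison, annotated to both ZNF564 and ZNF490, was at least 1.2-fold higher with doxycycline, at 7.89 with doxycycline and 7.60 without (0.29). It was the only such row among 15 past the floor that are shared between symbols (6.67%), near the 6.04% of all genes. Of the 15, 0 were as much lower, against 4.05% of all genes. ZNF564 alone differed by 0.30.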

How the results depend on the processing

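No paired analysis was possible because each group held 1 sample. Under 11 alternatives and 1 more chosen after seeing the data (at least 6 in both samples), the median difference of the chromosome 19 ZNF genes stayed positive, from 0.068 (no floor) to 0.098 (centred on the sample medians), and the share higher lay between 63.3% and 70.8%. The ranges were 0.092 to 0.16 for 19p and 0.056 to 0.080 for 19q. Centring moved the share of all genes that were higher to 53.2%. With no floor, 37 of 221 genes were at least 1.2-fold higher and 11 lower (1343 and 1103 of all 18417 genes). With a floor of 8, 8 of 48 were at least 1.2-fold higher and 1 lower. The counts over all genes were then 326 and 179, but their shares were not computed, so the 8 and the 1 have no background beside them. Fewer genes pass the higher floor. With a cluster gap of 0.5 Mb the ZNF628 to ZNF446 run split into 12 genes with a median of -0.012 and 35 with 0.039, and other clusters kept positive medians. At 2 Mb the ZNF653 to ZNF791 run joined its neighbour and its median was 0.15, and the ZNF175 to ZNF331 run joined the end run at 0.058. Averaging rows put ZNF257 at -0.084, ZNF493 at 0.31 and ZNF616 at 0.35. Of 222 values of 37 named genes, 216 moved by less than the robust SD of their level. The 6 that moved further were the mean and median over rows of ZNF257, ZNF493 and ZNF616. The rest of the 37 had 1 row each, which averaging cannot change, and centring shifts every gene alike. The 216 are therefore no measure of robustness.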

Other observations

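Some of the brightest chromosome 19 ZNF signal lay in rows shared between several genes, which the comparison left out. Of 21 such rows 15 passed the floor, 10 higher and 5 lower with doxycycline, with a median of 0.051. Some of the 15 also carry ribosomal protein genes, in paired rows that repeat the same difference. These are RPS27 with ZNF320 (0.051) and RPL39 with ZNF525 (-0.16), and the median is itself an RPS27 row. In the 6 whose symbols were all ZNF followed by digits and of this chromosome, 6 were higher with doxycycline, with a median of 0.087. Of the 9 that also carry other symbols, 4 were higher and 5 lower. Those other symbols include ZNF587B and the read-through ZNF559-ZNF177, in rows at 0.090, 0.042, -0.14 and -0.25. The split thus depends on the form of the name. A row shared by 8 genes of the ZNF101 to ZNF254 cluster, among them ZNF430 and ZNF208, stood at 12.91 with doxycycline and 12.85 without (0.056). Another, shared by ZNF761, ZNF845 and 2 more genes of the ZNF175 to ZNF331 cluster, stood at 11.94 with doxycycline and 11.86 without (0.078), while the rows of ZNF761 and ZNF845 alone were at -0.12 and -0.24. The row of ZNF587B and ZNF814 was at 10.51 with doxycycline and 10.76 without (-0.25), and ZNF814 alone was at 0.091.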
